A study of Mus musculus with 12 samples.

Results

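The liver transcriptome of mice on a normal diet was described from the 4 samples of the normal diet group (ND), out of 12 in the series. The samples were chosen by their titles. They came from C57Bl/6 mice that had eaten the normal diet for 2 months. The other 8 samples belong to 2 groups on a high-fat diet, with vehicle or with the compound MEC1, and were not analysed here. The labels give no sex, age, batch or housing for the ND mice, nor whether they were injected. Whether the 4 samples are 4 separate mice is not stated, so the spread reported between them may be technical in part. RNA came from whole, flash-frozen liver, so several cell types are mixed in each library.

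Most of the liver's mass is hepatocytes. They make and secrete most plasma proteins, and in mice also the major urinary proteins, small lipocalins that carry pheromones into urine. They build glucose in fasting, make lipids after feeding, turn ammonia into urea, synthesise bile acids and modify foreign compounds through cytochromes P450 and conjugating enzymes. Hepatocytes near the portal vein and near the central vein differ in these tasks, and hormones such as insulin, glucagon, glucocorticoids and pulsed growth hormone change their transcripts within hours. Kupffer cells (resident macrophages), sinusoidal endothelium, stellate cells and bile duct cells make up most of the rest.

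The promoters of 4 genes show what lies upstream of the transcripts on which the results turn. Alb encodes albumin, the most abundant transcript without a close copy, and stayed even across the libraries. Igfbp1 and Pck1, which insulin represses and fasting hormones induce, were highest in 1 library. Bcl6, a repressor whose transcript growth hormone lowers through STAT5, split the libraries into pairs. Each line gives the 250 bases that end just before a RefSeq start site of the GRCm38.p6 assembly, 5′ to 3′ along the gene's strand. Alb lies at chr5:90460620-90460869 (+ strand), with capitals on CCAAT in either direction. Igfbp1 lies at chr11:7197537-7197786 (+), with capitals on the insulin response core TGTTTTG on the opposite strand. Pck1 lies at chr2:173152823-173153072 (+), with capitals on the cAMP response element TNACGTCA. For Bcl6, the upstream bases of its second start site are at chr16:23981284-23981533 (− strand), with capitals on the STAT5-type motif TTCNNNGAA.
Alb: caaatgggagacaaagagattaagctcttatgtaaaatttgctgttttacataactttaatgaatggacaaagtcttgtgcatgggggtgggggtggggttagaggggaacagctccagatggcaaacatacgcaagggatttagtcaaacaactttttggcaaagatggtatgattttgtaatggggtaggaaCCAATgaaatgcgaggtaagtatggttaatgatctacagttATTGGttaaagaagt
Igfbp1: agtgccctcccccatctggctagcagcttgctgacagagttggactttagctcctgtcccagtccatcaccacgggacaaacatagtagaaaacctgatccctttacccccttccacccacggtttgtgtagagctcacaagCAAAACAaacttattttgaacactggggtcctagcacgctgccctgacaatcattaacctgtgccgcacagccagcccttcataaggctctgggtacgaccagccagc
Pck1: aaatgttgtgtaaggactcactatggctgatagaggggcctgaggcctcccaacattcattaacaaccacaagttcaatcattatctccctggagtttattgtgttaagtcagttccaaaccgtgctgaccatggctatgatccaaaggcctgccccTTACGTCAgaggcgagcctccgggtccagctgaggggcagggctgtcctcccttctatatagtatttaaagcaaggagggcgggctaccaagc
Bcl6: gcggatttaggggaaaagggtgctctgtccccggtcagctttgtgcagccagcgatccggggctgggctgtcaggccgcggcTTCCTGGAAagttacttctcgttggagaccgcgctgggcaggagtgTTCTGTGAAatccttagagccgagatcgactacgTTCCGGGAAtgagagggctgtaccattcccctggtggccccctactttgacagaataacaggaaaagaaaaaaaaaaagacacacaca
Both strands were searched for these 4 motifs, and no capital stretches overlap. Among the 32851 RefSeq mouse promoters of the same length, CCAAT occurred in 33.8%, TGTTTTG in 5.56%, TNACGTCA in 2.52% and TTCNNNGAA in 7.02%. The Bcl6 window held 3 matches of TTCNNNGAA, and the window of its first start site held 1. The same windows of Cish and Onecut1, described below with Bcl6, held no match of it. A match is a string of letters and was not tested as a binding site.

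The 4 libraries held between 41969827 and 49880249 counts in genes, and between 15721 and 15843 of the 24787 gene symbols had a count. A count of 3 equals 0.0594 to 0.0693 CPM (counts scaled by the library's total and its TMM factor). If counts were independent, this would be the lowest level that can be told from 0 by counting error alone. RPKM, which also takes account of gene length, was used to set genes beside each other, and CPM to set libraries beside each other. With 1 group there is nothing to test, so every value is a description of these 4 libraries. Of counts between 1 and 20, 71.9 to 73.8% were even, so both ends of a read pair may be counted. In that case counts are not independent, and the lowest level is higher than 3 counts.

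The samples held the transcripts that define liver. All 16 hepatocyte markers were above 1 RPKM, at a median of 1089 RPKM, and together they held 12.2 ± 0.516% of the summed RPKM (SD, n = 4). The lists for Kupffer cells (median of 15.5 RPKM), sinusoidal endothelium (7.05 RPKM) and stellate cells (2.75 RPKM) were lower, and so was that for bile duct cells (0.751 RPKM). Markers of white blood cells, platelets and muscle were low, while the erythroid genes, given below with the haemoglobins, had a median of 43.5 RPKM. The summed RPKM lay between 2.21 and 3.28 for 13 T and NK cell genes, between 1.96 and 3.41 for 8 B cell genes and between 4.21 and 8.49 for 13 neutrophil genes. It lay between 1.55 and 2.57 for 8 platelet genes and between 0.143 and 0.756 for 12 skeletal muscle genes. Of the adipocyte list, Car3 alone reached 1593 ± 117 RPKM, a level at which hepatocytes are known to carry it, while Plin1, Lep, Retn and Ucp1 were at 0 in every library. Cela1, at 17.5 ± 2.53 RPKM, stood out in the pancreas list, of which Prss1, Cpa1, Cpb1, Reg1 and Zg16 were at 0. The Y-linked Ddx3y was read at 88.9, 78.2, 67.9 and 81.00 CPM in replicates 1 to 4, and Xist, the RNA that coats the inactive X, had 0 to 4 counts in each.

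A small number of genes carried most of the liver's messenger RNA. Between 41 and 48 genes (43.8 ± 2.99, SD, n = 4) held 50% of the summed RPKM of a library. On counts, which are not divided by gene length, 85 to 100 genes held 50%. The single gene of highest level held 6.00%, the 5 highest 23.4%, the 10 highest 32.3 ± 0.844% and the 100 highest 59.3 ± 0.970%. At the other end, 9772 genes had a mean of at least 1 RPKM, 3107 at least 10, 458 at least 100 and 48 at least 1000. Those 48 genes held 51.1% of the total. All of the 10 highest genes, 23 of the 25 highest and 51 of the 100 highest encode secreted proteins by the lists used here. The 218 genes of these lists together held 52.4 ± 0.937% of RPKM. Several of the highest genes are near copies of each other, as described below. These shares would be too high if shared reads were counted for each copy, which was not tested.

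**Figure D1:**
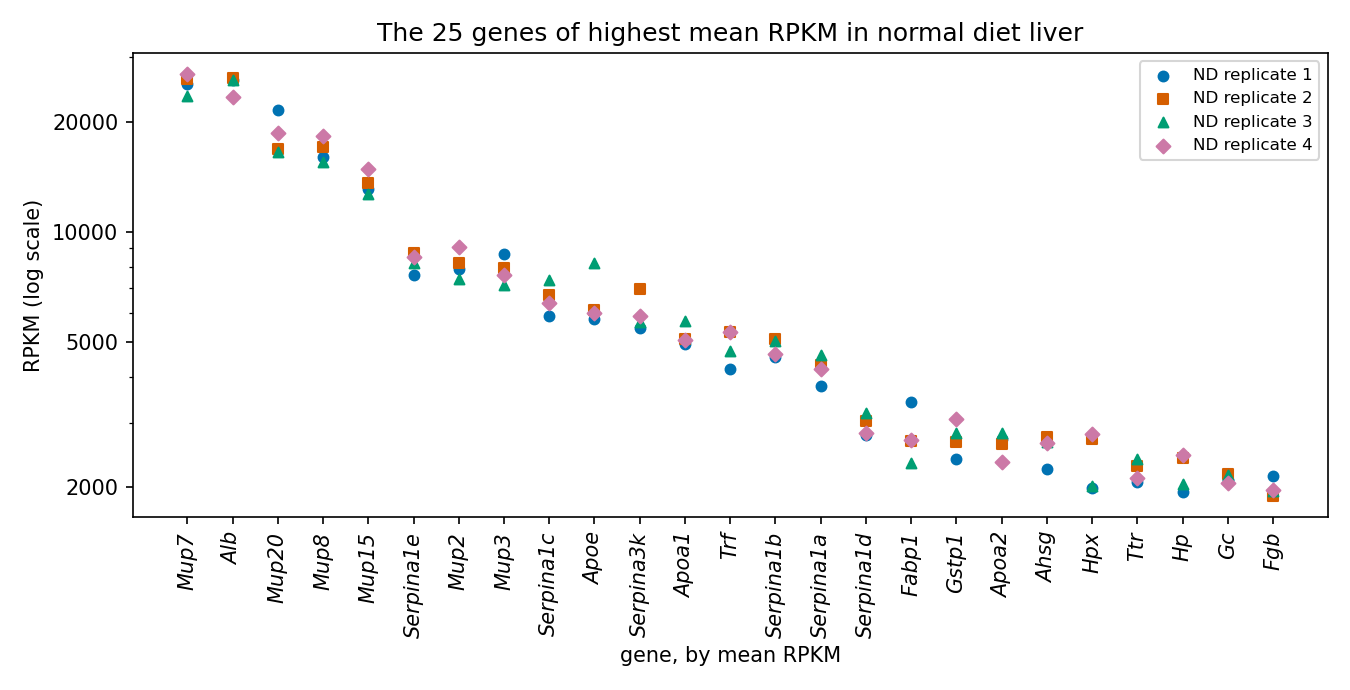
RPKM (vertical, log scale) of the 25 genes of highest mean RPKM in normal diet liver, with 1 point for each of the 4 libraries. The points of a gene lie close together and overlap with those of its neighbours in rank, from Mup7 at a mean of 25502 RPKM to Fgb at 1987 RPKM.

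The major urinary proteins formed the largest class, with 23.3 ± 1.57% of RPKM in 21 genes, and 24.3, 22.8, 21.3 and 24.8% in replicates 1 to 4. Adding Gm21320, an older symbol of Mup22, gave 23.6%. They lie side by side on chromosome 4, which held 19 of the 100 highest genes and 26.8% of all RPKM. Mup7 reached 25323, 26224, 23482 and 26977 RPKM. Mup20, also called darcin, the protein by which males attract females, reached 21517, 16857, 16537 and 18599 RPKM and was highest in replicate 1. Mup8 had 16710.1 ± 1222 RPKM, Mup15 had 13559 ± 963 RPKM, Mup2 had 8153 ± 686 RPKM and Mup3 had 7855 ± 664 RPKM. At the low end were Mup5 at 32.4 ± 4.23 RPKM, Mup4 at 8.56 ± 0.920 RPKM and Mup6 at 0.593 ± 0.253 RPKM. Of the 20 genes with a mean of at least 5 CPM, 16 were lowest in replicate 3. None of the 20 differed 2-fold between its highest and lowest library, which for 20 genes is near the 2.58% of all genes at that level. Mup18 had the widest range of the 20, at 758, 792, 489 and 812 CPM. These genes are near copies. Of all 50-base stretches of the gene, 100% in Mup15, 87.5% in Mup8, 86.7% in Mup7, 78.2% in Mup2, 50.5% in Mup20 and 13.3% in Mup3 also occur in another gene model. The level of a single Mup gene therefore depends on how shared reads were assigned, which is not given in the sources used here. If shared reads were counted for each copy, the share of the whole class would also be too high. Among all genes, 57 in 24 sets had identical counts in every library. For example, the near copies Cphx1, Cphx2 and Cphx3 each had 409, 386, 251 and 118 counts. The Mup genes printed above differed in level from each other. Whether their shared reads were counted for each copy was not tested.

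Albumin and the other plasma carriers came second, with 13.5 ± 0.422% of RPKM in 64 genes. Alb, at chr5:90460897-90476602 (+ strand), stood at 25967, 26374, 26039.5 and 23293 RPKM in replicates 1 to 4, lowest in replicate 4. It shares no 50-base stretch with another gene. Mup7 and Alb could not be ordered: their means differed by 83.5 RPKM with an SD of 2616 RPKM, and Mup7 was the higher in 1 of 4 libraries. Trf, transferrin, the iron carrier, had 4891 ± 538 RPKM, although 59.4% of its 50-base stretches occur in another gene model and 63.5% of its exons overlap one on its strand. Ahsg, a fetuin that keeps calcium phosphate in solution, had 2569.8 ± 226 RPKM, and Hpx, which binds free haem, had 2375 ± 436 RPKM. Ttr, carrier of thyroxine and of retinol with its partner, had 2215 ± 143 RPKM. Hp, which binds free haemoglobin, had 2206 ± 252 RPKM. Gc, the vitamin D binding protein, was even across the libraries, at 2099.5, 2172, 2157 and 2059.7 RPKM.

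The serpins, mostly protease inhibitors of plasma, held 8.24 ± 0.408% of RPKM. Most of it came from the Serpina1 genes on chromosome 12, the mouse copies of alpha-1 antitrypsin, at 6.33 ± 0.339%. Serpina1e had 8274 ± 491 RPKM, Serpina1c had 6598 ± 628 RPKM, Serpina1b had 4821 ± 269 RPKM, Serpina1a had 4233 ± 339.8 RPKM and Serpina1d had 2958 ± 193 RPKM. Between 29.5% and 74.2% of their 50-base stretches recur in another gene, so their split is also uncertain. Their sum would likewise be too high if shared reads were counted for each copy. Serpina3k, an antichymotrypsin-like gene, had 5999 ± 681 RPKM, highest in replicate 2. Serpina7, the thyroxine-binding globulin, was low and uneven, at 64.3, 21.5, 27.8 and 18.3 CPM.

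Apolipoproteins held 4.55 ± 0.409% of RPKM. Their sum was highest in replicate 3, at 4.39, 4.38, 5.16 and 4.29%. Most members did not share this order. Of the 17 with a mean of at least 5 CPM, 4 were highest in replicate 3 and 9 in replicate 2. Apoe, the ligand through which remnants are cleared, was highest in replicate 3, at 5786, 6114, 8212 and 5978 RPKM. Apoa1 and Apoa2, the main proteins of high-density lipoprotein, had 5186 ± 339.6 RPKM and 2620.4 ± 205 RPKM. Apoa1 was also highest in replicate 3, at 4931, 5079, 5686 and 5048 RPKM. Apoa2 was lowest in replicate 4, at 3260.4, 3241, 3214 and 2720.2 CPM. Apoc1, Apoc3 and Apoh followed with 1412 ± 71.6 RPKM, 1015 ± 90.3 RPKM and 923 ± 32.9 RPKM. Apod was at 0 RPKM. Coagulation factors held 1.65 ± 0.0499%, led by the fibrinogen chains Fgb (1987 ± 109.7 RPKM), Fgg (1439 ± 72.8 RPKM) and Fga (968 ± 35.8 RPKM). Complement held 1.14 ± 0.0695%, led by C3, its central component, at 938 ± 89.1 RPKM.

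**Figure D2:**
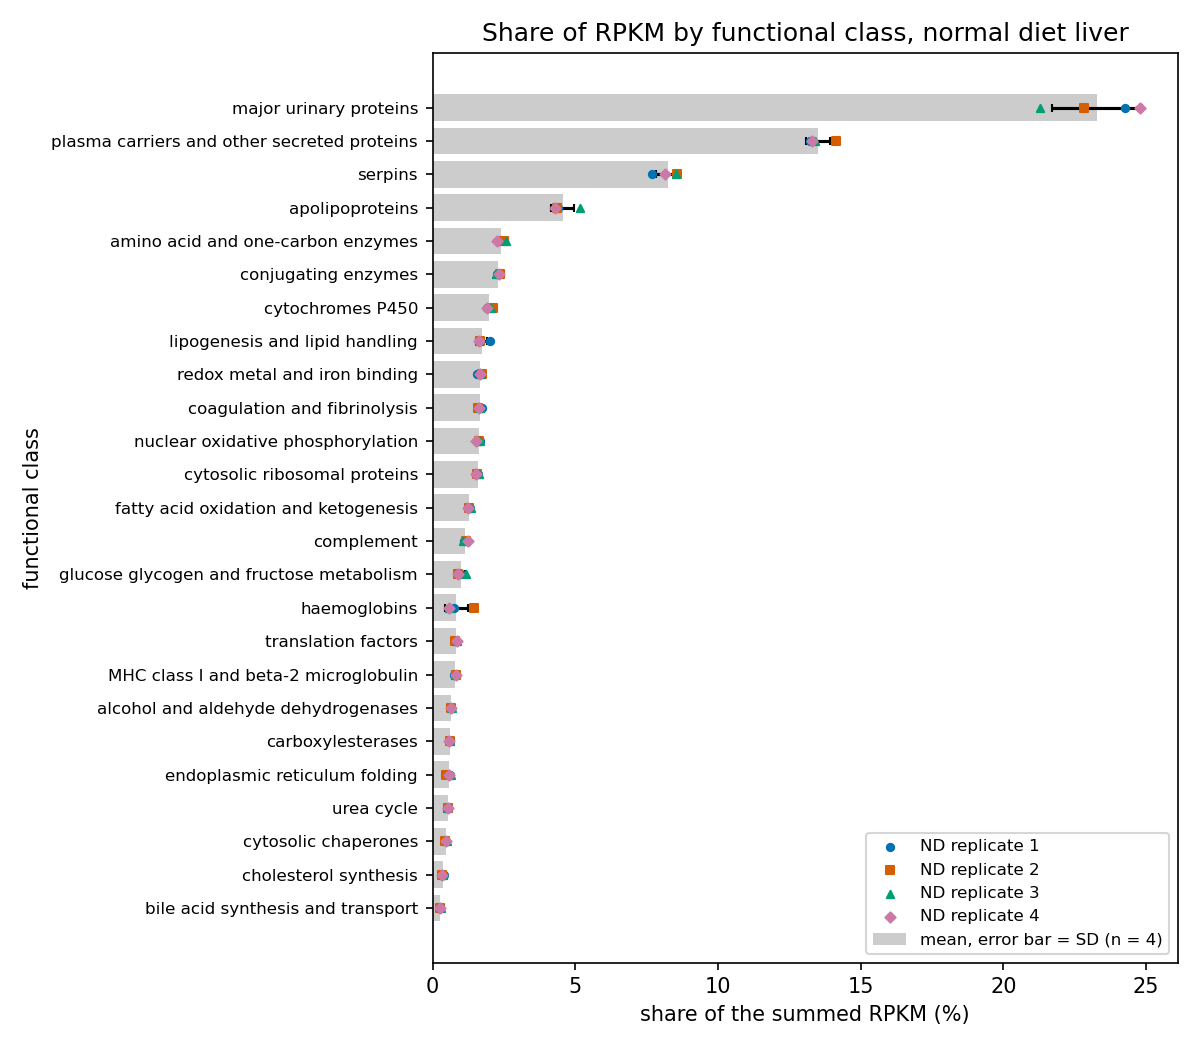
Share of the summed RPKM (horizontal, %) in each functional class, with a grey bar for the mean, a black bar for the SD (n = 4) and 1 point per library. Major urinary proteins (23.3%) and plasma carriers (13.5%) lead, and haemoglobins are the class whose libraries lie farthest apart for their level.

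Enzymes of intermediary metabolism each held a small share. Amino acid and one-carbon enzymes held 2.41 ± 0.148%, led by Bhmt, which methylates homocysteine with betaine, at 1332, 1624, 1258 and 983 RPKM, and Gnmt, which consumes S-adenosylmethionine, at 1169 ± 109.7 RPKM. Hpd of tyrosine breakdown had 674 ± 42.5 RPKM and Tat, which starts it, 648 ± 181 RPKM. The 8 urea cycle genes held 0.522 ± 0.0151% and were among the steadiest, with Arg1, the final enzyme, at 677 ± 32.2 RPKM, Cps1, the entry enzyme, at 593 ± 19.8 RPKM and Ass1 at 487 ± 51.4 RPKM. Fatty acid oxidation held 1.28 ± 0.0489%. Its highest members were Scp2, a sterol carrier and peroxisomal thiolase, at 1096 ± 17.3 RPKM, and Phyh, of phytanic acid breakdown, at 651 ± 34.2 RPKM. Lipogenesis and lipid handling held 1.72 ± 0.187%, and their sum was highest in replicate 1. Of the 43 members with a mean of at least 5 CPM, 17 were highest in replicate 1 and 15 in replicate 3. Fabp1, the liver fatty acid binding protein, was highest in replicate 1, at 3415, 2676, 2333 and 2691 RPKM. Scd1, which desaturates stearate, was also highest there, at 1697, 1164, 1252 and 1084 RPKM. Sugar metabolism held 0.994 ± 0.128%, with Fbp1 of gluconeogenesis at 342 ± 29.2 RPKM. Cholesterol synthesis held 0.359 ± 0.0219%, with Sc5d highest at 189 ± 14.5 RPKM. Bile acid synthesis and transport held 0.268 ± 0.0117%, with the uptake carrier Slco1b2 at 223 ± 21.97 RPKM.

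Detoxification genes made up several classes. The conjugating enzymes held 2.30 ± 0.0554%, led by the glutathione transferases Gstp1 (2735 ± 286 RPKM), Mgst1 (1452 ± 153 RPKM) and Gsta3 (769 ± 61.2 RPKM). The 104 cytochrome P450 genes in the table held 1.99 ± 0.103%. Cyp2e1, which oxidises ethanol, had 1564 ± 148 RPKM and Cyp3a11, of broad drug specificity, 1504 ± 122 RPKM. Cyp2d9, a male-biased steroid hydroxylase, had 587 ± 104 RPKM. Carboxylesterases held 0.599 ± 0.017%, with Ces1c at 758 ± 10.8 RPKM and Ces3a at 757 ± 56.9 RPKM. Alcohol and aldehyde dehydrogenases held 0.660 ± 0.0113%, with Adh1 at 836 ± 86.04 RPKM. Redox and metal-binding proteins held 1.66 ± 0.0792%, led by the ferritin light chain Ftl1 at 1065 ± 92.4 RPKM, the selenium-binding Selenbp2 at 869 ± 188 RPKM and the peroxidase Gpx1 at 861 ± 108 RPKM.

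Machinery that every cell uses was spread over many genes. The 83 nuclear genes of oxidative phosphorylation held 1.62 ± 0.0643%, with the ATP synthase subunit Atp5b highest at 406 ± 24.9 RPKM. Cytosolic ribosomal proteins held 1.58 ± 0.0474% over 87 genes, with Rplp1 at 314 ± 27.2 RPKM. The elongation factor Eef1a1 alone reached 1578 ± 57.01 RPKM. No mitochondrially encoded gene has a row in the tables used here, so these shares are of nuclear transcripts. Transcription factors of hepatocyte identity were modest in level. The highest of the 25 in a list added after values were seen were Cebpa at 101 ± 11.1 RPKM, Hnf4a at 86.9 ± 12.1 RPKM and Atf5 at 80.5 ± 16.8 RPKM. Among 20 male-biased liver genes, the median was 197 RPKM, and among 20 female-biased ones it was 0.26 RPKM. The female-biased Sult2a1 and Cyp2b9 were at most 0.0167 RPKM on average, while Cyp2c40 had 27.9 ± 5.70 RPKM.

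The order within the 25 highest genes was only partly fixed. Of 25 neighbouring pairs in rank, 6 kept their order in all 4 libraries. Those were Alb above Mup20, Mup8 above Mup15, Mup15 above Serpina1e, Serpina1b above Serpina1a, Serpina1a above Serpina1d, and Fgb above Car3. The order of pairs with Mup or Serpina1 genes also depends on how shared reads were assigned, which could act alike in all 4 libraries. The mean gap exceeded the larger SD of both genes in 9 pairs. The remaining neighbours cannot be ranked by these libraries.

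The 4 libraries were alike for most genes. Among 9074 genes with a mean of at least 5 CPM, the median ratio of the highest to the lowest library was 1.26, and 84.2% of genes stayed under 1.5. The common biological coefficient of variation, edgeR's estimate of the spread between libraries beyond counting error, was 0.167. A gene was called variable where its highest CPM was at least 2 times its lowest. Such folds are taken from log2 CPM with a prior count of 2, which makes them slightly smaller than the ratio of the printed CPM at low levels. By this rule 234 of the 9074 genes (2.58%) were variable, and 21 differed at least 4-fold. The number depends on the lowest level admitted: it was 985 of 11935 genes (8.25%) at a mean of at least 1 CPM and 82 of 4899 (1.67%) at 20 CPM. The share was 2.60% for genes of 1 to 10 RPKM, 1.74% from 10 to 100 and 3.66% from 100 to 1000, and none of the 48 genes of at least 1000 RPKM was variable. The count rests on replicates 2 and 3: without replicate 2 it was 125, without replicate 3 it was 142, and without replicate 1 or 4 it was 171. Replicate 2 was the highest library for 78 of the 234 genes and replicate 3 for 67. Only 19 genes stayed 2-fold whichever library was left out. On the first principal component, with 45.6% of the variance, replicate 2 lay at -15.5 and replicate 3 at 16.5, with replicates 1 (-5.25) and 4 (4.19) between them.

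**Figure D3:**
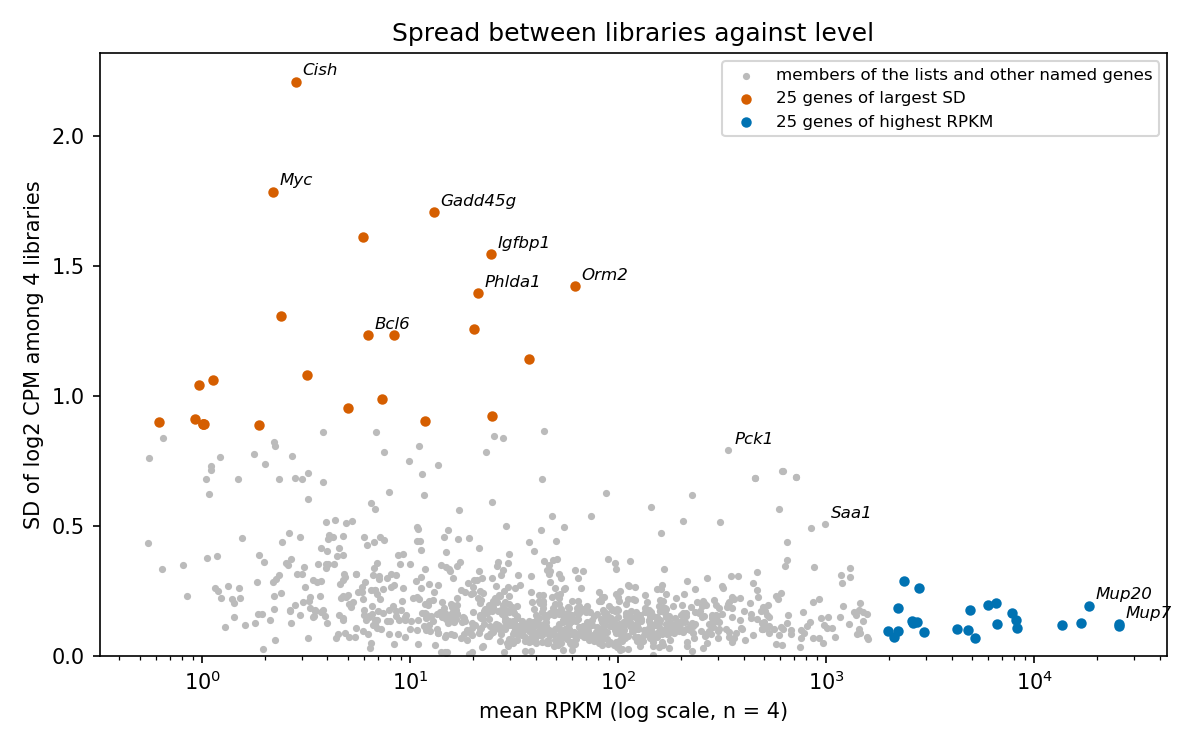
SD of log2 CPM among the 4 libraries (vertical) against mean RPKM (horizontal, log scale) for the members of the gene lists and other named genes with a mean of at least 5 CPM. The 25 genes of largest SD (orange) lie below 100 RPKM, and the 25 genes of highest RPKM (blue) have small SDs.

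The 25 genes of largest spread differed 3.74-fold to 26.3-fold. Replicate 2 was highest for 11 of them, replicate 1 for 7, replicate 3 for 6 and replicate 4 for 1. Cphx1, Cphx2 and Cphx3 are near copies with the same counts and stand for 1 measurement, at 8.86, 8.65, 5.80 and 2.34 CPM. Several of the remaining genes belong to the lists of growth hormone responses, fasting and glucocorticoid responses, and acute phase proteins. The growth hormone list was added after values were seen, and the other lists were chosen with earlier results known. This membership is therefore a description.

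**Figure D4:**
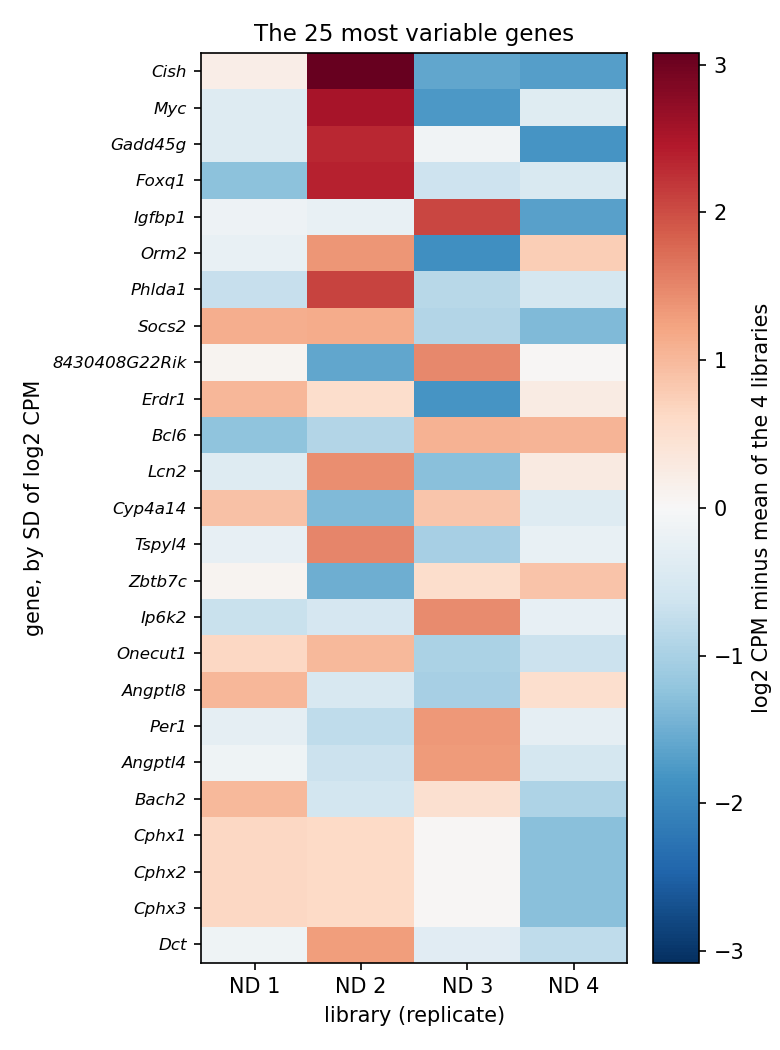
Log2 CPM of each library minus the mean of the 4 libraries (colour) for the 25 genes of largest SD. Replicate 2 is high for Cish, Myc, Gadd45g, Foxq1 and Phlda1, replicate 3 is high for Igfbp1, Ip6k2, Per1 and Angptl4, and Bcl6 separates replicates 1 and 2 from 3 and 4.

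Growth hormone acts on hepatocytes in pulses, through its receptor, JAK2 and STAT5, and Cish and Socs2 encode inhibitors that STAT5 induces and that damp the same signal. Cish had the largest spread of the 9074 genes. It stood at 4.96, 36.5, 1.43 and 1.35 CPM in replicates 1 to 4, a 26.3-fold range. Its SD of log2 CPM was 2.21, where counting error alone gives 0.0915. Replicate 2 was far above the rest and replicate 1 above replicates 3 and 4. Socs2 stood at 13.6, 13.8, 3.33 and 2.45 CPM, high in replicates 1 and 2. Onecut1 (HNF6), a liver transcription factor that growth hormone raises, showed the same pairs at 15.6, 19.9, 5.11 and 6.39 CPM, although 52.8% of its exons overlap another model on its strand. Bcl6, whose promoter is printed above, ran the other way, at 12.95, 16.3, 63.98 and 62.9 CPM, low in replicates 1 and 2. Egfr, the epidermal growth factor receptor, stood at 586, 252, 302 and 420.3 CPM, highest in replicate 1 and lowest in replicate 2. Together 5 of the 12 measurable genes of this list, which was added after values were seen, were variable (41.7%, against 2.58% of all genes). The receptor and its relays were steady: Ghr at 593, 604, 549.8 and 592 CPM, Jak2 at 19.5, 17.1, 14.6 and 16.8 CPM and Stat5b at 46.5, 60.2, 62.4 and 57.7 CPM. Igf1, the circulating growth factor that the axis controls, ranged 1.48-fold, at 633, 503, 429 and 532 CPM.

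Other genes high in replicate 2 included Myc, a growth regulator, at 2.73, 20.7, 1.06 and 2.79 CPM, and Gadd45g, a stress-inducible gene, at 7.97, 52.4, 9.75 and 3.01 CPM. Phlda1 stood at 21.5, 148, 19.5 and 24.1 CPM and Foxq1, a forkhead factor, at 5.18, 64.2, 7.998 and 9.07 CPM. For both, a gene on the opposite strand covers part of the exons (33.0% and 66.1%), and strand use in the counting is not given in the sources used here. Among immediate early genes, 8 of 12 were highest in replicate 2. Only Myc and Jun (33.8, 51.97, 19.97 and 22.2 CPM) were 2-fold, or 16.7% against 2.58% of all genes. The Foxa factors, which open liver chromatin, were also highest there, with Foxa2 at 16.2, 33.4, 14.7 and 13.9 CPM and Foxa1 at 13.2, 25.6, 13.3 and 14.03 CPM.

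The genes that fasting hormones and glucocorticoids induce were high in replicate 3 and low in replicate 2. Of 25 such genes with at least 5 CPM, 14 were variable (56.00%, against 2.58% of all genes). Replicate 3 was highest for 11 of these 14 and replicate 2 lowest for 10. Without replicate 3 the count of 14 fell to 4, and without replicate 2 to 9. Igfbp1, which binds insulin-like growth factors, stood at 26.5, 25.1, 124 and 9.18 CPM, with replicate 3 far above and replicate 4 lowest. Pck1, which commits carbon to gluconeogenesis, stood at 876, 578, 2103 and 836 CPM, and G6pc, which releases free glucose, at 431, 287, 636 and 273 CPM. Both had the same highest library. Angptl4, an inhibitor of lipoprotein lipase, stood at 21.6, 15.1, 58.9 and 16.4 CPM, and Irs2, an insulin receptor substrate that rises when insulin is low, at 10.3, 9.30, 25.7 and 10.4 CPM. Per1, a clock gene with a direct glucocorticoid response, stood at 3.77, 2.62, 11.4 and 3.78 CPM, and Tsc22d3 (GILZ), another glucocorticoid target, at 63.5, 55.3, 113 and 80.4 CPM. Lpin1, a phosphatidate phosphatase, stood at 32.5, 26.3, 58.1 and 29.2 CPM. In each of these genes replicate 3 was the highest. Exceptions were Gadd45g (above), Pdk4, which blocks pyruvate oxidation, at 29.7, 12.6, 17.6 and 15.9 CPM, and Cyp4a14, a fatty acid hydroxylase, at 15.5, 3.23, 14.9 and 6.33 CPM. Fkbp5, another glucocorticoid target, did not follow, at 13.4, 13.97, 14.01 and 19.8 CPM, nor did Ppargc1a, at 4.90, 6.19, 3.91 and 6.45 CPM.

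Genes that feeding raises did not form an opposite pattern. Of the 17 measurable genes of the list, 1 was variable (5.88%, against 2.58% of all genes). That was Thrsp, a lipogenic nuclear protein, at 310.2, 477, 169 and 317 CPM, highest in replicate 2 and lowest in replicate 3. Angptl8, an insulin-induced partner in lipase control that is outside this list, stood at 47.1, 16.5, 11.5 and 33.1 CPM, highest in replicate 1. Fasn, fatty acid synthase, stood at 937, 556, 738 and 861 CPM, lowest in replicate 2 and highest in replicate 1. Srebf1 stood at 245, 298, 317 and 261 CPM, lowest in replicate 1.

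Several chaperones of the endoplasmic reticulum were lowest in replicate 2, as in 19 of the 25 genes of that list. Herpud1, which takes part in degradation of misfolded proteins, stood at 166, 128, 357 and 201 CPM, Creld2 at 39.9, 23.3, 63.6 and 41.9 CPM and Sdf2l1 at 51.1, 33.00, 67.3 and 56.3 CPM. These 3 were the variable members (12%, against 2.58% of all genes), and all were highest in replicate 3. Hspa5 (BiP), the main chaperone of that compartment, stood at 1118, 792, 1186 and 1087 CPM. Also high in replicate 3 were Ip6k2, an inositol phosphate kinase, at 8.47, 9.48, 37.5 and 11.3 CPM, and the unnamed 8430408G22Rik, at 27.2, 8.41, 70.8 and 26.1 CPM.

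Acute phase proteins, which cytokines raise in hepatocytes, were mostly highest in replicate 2 (15 of 25 measurable members) and lowest in replicate 3 (20 of 25). This order was not particular to them. Of 45 conjugating enzymes, 32 were highest in replicate 2 and 25 lowest in replicate 3. Of 25 endoplasmic reticulum folding genes, 1 was highest in replicate 2 and 5 were lowest in replicate 3. Of the 25 acute phase genes, 8 were variable (32.00%, against 2.58% of all genes). Without replicate 2, the count of 8 fell to 4. Orm2, an orosomucoid that binds basic drugs, stood at 39.3, 118, 12.3 and 77.3 CPM and Orm1 at 764, 1158, 519 and 923 CPM. Lcn2, which withholds iron from bacteria, stood at 24.4, 86.9, 13.3 and 38.9 CPM. The serum amyloids followed the same library, with Saa1 at 816, 1159, 557 and 560.5 CPM, Saa2 at 454, 738, 365 and 297 CPM and Saa3 at 8.62, 16.97, 5.64 and 5.86 CPM. Fgl1 was low in replicate 3 alone, at 432, 537, 255 and 546 CPM. Mt1, a metallothionein, was high in replicate 4 alone, at 6.15, 5.36, 6.38 and 13.9 CPM. Crp, which is not a strong acute phase protein in mice, stood at 342, 363, 318 and 293 CPM, and the fibrinogen chains differed by at most 1.16-fold.

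**Figure D5:**
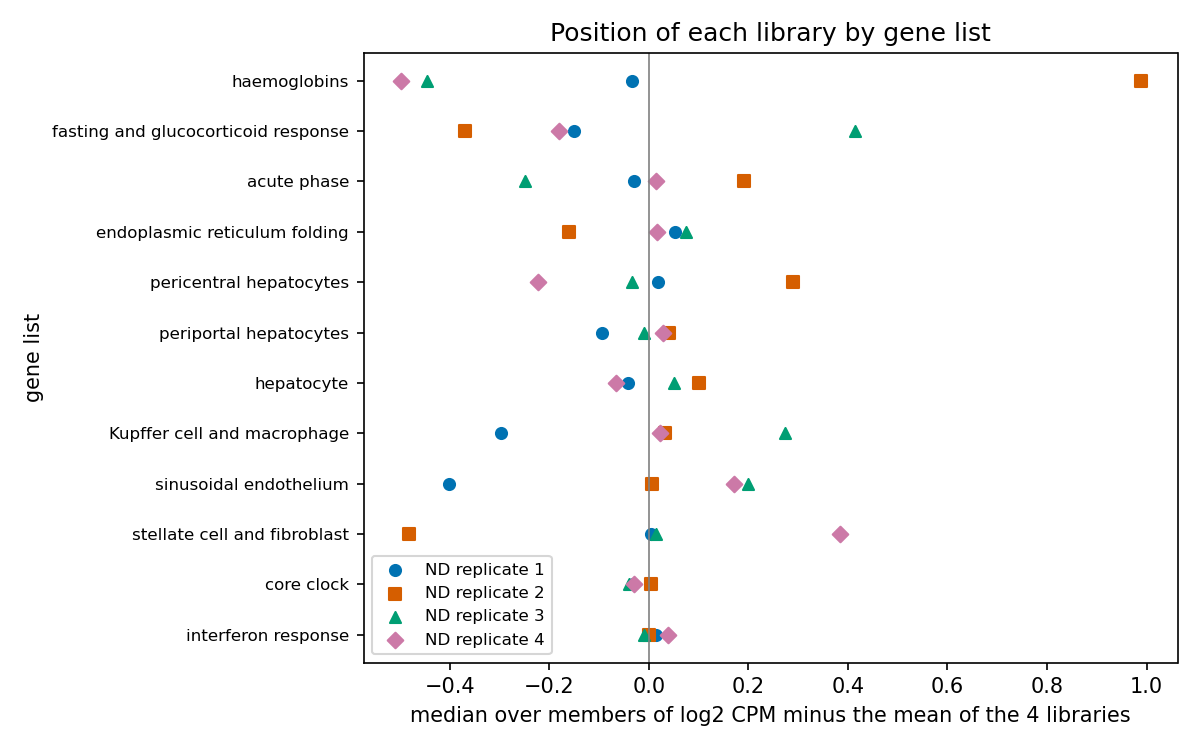
Position of each library (horizontal) by gene list, as the median over members of how far log2 CPM lay from the gene's own mean, with 1 point per library. Haemoglobins put replicate 2 at 0.99, the fasting and glucocorticoid list puts replicate 3 at 0.41, and the interferon and clock lists lie near 0 in every library.

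All 6 haemoglobin genes were variable, against 2.58% of all genes, and all were highest in replicate 2. Their summed level was 3187, 6246, 2466 and 2366 RPKM in replicates 1 to 4, or 0.763, 1.44, 0.581 and 0.557% of RPKM. The alpha chain Hba-a1 stood at 904, 1856, 691 and 660.4 CPM and the beta chain Hbb-bs at 463, 904, 315 and 321 CPM. The 6 symbols are 3 pairs of near copies with almost the same counts within a pair, so they stand for 3 measurements. Taking 1 gene of each pair gave 0.42% of RPKM where all 6 gave 0.837%, and all 3 were variable. Without replicate 2 none of the 6 was 2-fold. Haemoglobin transcripts are carried by red cells, and in a bulk sample fewer cells of a type and less RNA per cell cannot be told apart. Replicate 2 was thus both the library of most haemoglobin and the one of highest Cish, Myc and acute phase genes, and a link between these was not tested. Of the other erythroid markers, Alas2, of haem synthesis, ranged 1.47-fold, at 92.00, 136, 106 and 103 CPM. The summed neutrophil genes were also highest in replicate 2, at 8.49 RPKM against 4.21 to 6.10 RPKM, although S100a9, the largest of them, was highest in replicate 1, at 4.08, 3.28, 1.80 and 1.99 RPKM.

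Central vein markers were highest in replicate 2 for 17 of 21 genes, and 6 were variable (28.6%, against 2.58% of all genes). Being highest in replicate 2 was not particular to them. It held for 32 of 45 conjugating enzymes and 37 of 64 amino acid and one-carbon enzymes, but for 1 of 25 endoplasmic reticulum folding genes. Glul, glutamine synthetase of the last hepatocyte layer, stood at 527, 838, 534 and 379 CPM. Oat, ornithine aminotransferase, stood at 543, 879, 451 and 382 CPM, the glutamate carrier Slc1a2 at 76.5, 122, 73.2 and 50.9 CPM and the ammonium channel Rhbg at 2.95, 9.95, 5.76 and 3.27 CPM. Lgr5, a Wnt coreceptor, stood at 5.68, 9.39, 6.91 and 3.05 CPM. In all 5, replicate 2 was highest, and replicate 4 was lowest in 4 of them, Rhbg being lowest in replicate 1. Tbx3, a transcription factor of the same zone, went against them, at 31.5, 11.8, 15.6 and 20.2 CPM. Without replicate 2, and also without replicate 4, 2 of the 21 remained 2-fold. Portal vein markers had 3 variable genes of 20 (15%). Pck1 and G6pc are described above, and Hsd17b6, of steroid metabolism, stood at 22.8, 28.7, 34.1 and 47.7 CPM. The urea cycle genes, Cyp2f2 (494 ± 63.6 RPKM) and Hal (104 ± 9.43 RPKM) of the portal zone stayed under 2-fold.

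The markers of the other liver cells differed between libraries, in an order that the lists did not all share. Of 15 endothelial genes, 14 were lowest in replicate 1, and their summed level was 103, 140.1, 162 and 155 RPKM. Clec4g, a lectin of sinusoidal endothelium, stood at 35.4, 54.7, 48.4 and 46.4 CPM and Fcgr2b, an Fc receptor of the same cells, at 28.9, 44.1, 41.6 and 44.00 CPM. Of 16 Kupffer cell and macrophage genes, 14 were lowest in replicate 1, and the sum was 209.5, 255, 314 and 269.7 RPKM. Clec4f, a Kupffer cell lectin, stood at 65.3, 92.5, 88.7 and 93.9 CPM, and Marco, a scavenger receptor, at 8.47, 6.01, 16.9 and 6.63 CPM, highest in replicate 3. Of 12 measurable stellate cell genes, 10 were lowest in replicate 2 and 9 highest in replicate 4. Lrat, which stores retinol as esters in stellate cells, stood at 24.98, 17.8, 22.1 and 41.2 CPM, the collagen Col1a1 at 5.94, 4.62, 10.9 and 10.8 CPM, and Dcn, decorin, at 145, 113, 132 and 168 CPM. The cytochromes that break down retinoic acid were also highest in replicate 4: Cyp26a1 stood at 57.02, 33.5, 37.6 and 121 CPM and Cyp26b1 at 10.1, 16.6, 15.4 and 31.7 CPM. Of the stellate cell genes 4 of 12 were variable (33.3%, against 2.58% of all genes), with 1 of 16 Kupffer cell genes and 0 of 15 endothelial genes. Without replicate 2, and also without replicate 4, 1 of the 12 stellate cell genes was 2-fold. Bile duct markers summed to 86.6, 67.6, 85.3 and 73.3 RPKM, highest in replicate 1, and none of the 4 measurable ones was variable. The summed hepatocyte markers were 50859, 52856, 54458 and 49089 RPKM, and none of the 16 was variable.

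No member of several lists was variable, which for the shorter lists is near the 2.58% of all genes. This held for all 75 measurable oxidative phosphorylation genes, 81 ribosomal proteins, 39 genes of fatty acid oxidation, 24 of cholesterol synthesis, 22 coagulation factors, 14 carboxylesterases, 8 urea cycle genes, 15 interferon response genes and 13 heat shock genes. In the core clock 3 of 12 genes were variable. Per1 is given above, Bhlhe40 stood at 101, 67.8, 39.2 and 61.6 CPM and Nr1d1 (REV-ERB alpha) at 5.16, 3.63, 7.81 and 4.85 CPM. Clock genes that held level included Arntl (BMAL1) at 26.1, 22.8, 25.9 and 27.1 CPM, Per2 at 12.2, 10.2, 10.1 and 9.58 CPM and Nr1d2 at 11.6, 11.8, 11.3 and 11.4 CPM. Dbp, a clock output of wide daily range, was low in all 4, at 1.08, 1.26, 1.39 and 1.19 CPM. Cell cycle genes were scarce: 4 of 26 reached 5 CPM, and Mcm6, of the replicative helicase, was the variable one, at 3.55, 11.5, 4.44 and 5.56 CPM.

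The 10 steadiest genes of at least 10 RPKM differed by at most 1.03-fold. They were Gm15501, Pa2g4, Rtn3, Lpcat3, Tor1a, Ctnnd1, Mrps28, Cd47, Ganab and Sema4g. Pa2g4, a growth-related RNA-binding protein, stood at 59.3, 58.7, 58.7 and 59.1 CPM, Lpcat3, which loads polyunsaturated fatty acids into phospholipid, at 89.5, 89.5, 90.5 and 88.5 CPM, and Ganab, glucosidase II of glycoprotein folding, at 181, 177, 181 and 181 CPM. They were chosen for this closeness, so it is a description. Gapdh, often used as a reference gene, stood at 302, 325, 305 and 277 CPM.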

How the data were processed

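Liver RNA of 4 normal diet samples was sequenced, on libraries made by Illumina protocols, per the labels' protocols. The authors deposited unnormalised counts of each sample by gene symbol, plus a merged RPKM table, per the file headers. STAR 2.7.10a and mm10 are named in the submitters' processing notes; the counting tool, its annotation and its use of strand are not given in the sources used here. In each library, 244 to 277 genes were above 0 in RPKM without a count, so both measures differ in their reads. In the merged table, 12 columns fit no sample title and were not analysed here.

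Shares are of the summed RPKM of a library. Spread was measured on counts as CPM with TMM factors (edgeR 4.0.16 in R 4.3.3), with logarithms taken at a prior count of 2, and the dispersion by estimateDisp after filterByExpr with an intercept only. The procedure was tested on simulated data. GENCODE M21 gave positions and overlaps: 24255 of 24787 symbols matched directly, 124 by synonym and 408 not. Sequences are from RefSeq, which held promoters for 167 of the 217 genes named by rule. In all, 57 genes in 24 sets had identical counts in every library, mostly near copies or overlapping genes.

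Genes were named by rule: the 25 of highest mean RPKM, the 25 of largest SD of log2 CPM at a mean of at least 5 CPM, the 10 of smallest SD at a mean of at least 10 RPKM, and for each list the 3 of highest RPKM and the 1 of largest SD. Some genes that the rule names are not reported here. Others named were chosen after their values were seen. The members and lists were chosen with earlier results of these data known, and 2 lists (liver transcription factors, growth hormone response) were added after values were seen.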

Additional observations from a re-analysis of the deposited data

Results flagged for a closer look

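In 22 of 281 groups of 4 values examined (217 named genes and the summed lists), 1 library lay far from the other 3, by a gap above the critical value of Dixon's test. Chance flags about 1 in 20 groups of this size, but that rate does not apply here, since many of the genes were named for their SD over the same 4 values and lists share members with them. Replicate 3 accounted for 9 of the 22, replicate 2 for 8, replicate 4 for 3 and replicate 1 for 2.

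Replicate 2 stood above the other libraries for Cish (36.5 CPM against 1.35 to 4.96), Myc (20.7 against 1.06 to 2.79), Gadd45g (52.4 against 3.01 to 9.75), Foxq1 (64.2 against 5.18 to 9.07) and Phlda1 (148 against 19.5 to 24.1). Tspyl4, a nucleosome assembly protein relative, stood at 12.7 CPM there against 2.22 to 3.80, with 37.8% of its exons under a gene on the opposite strand. The neutrophil gene S100a8 was at 1.61 CPM there against 0.601 to 0.737. Ganab was the low one, at 177 CPM against 180.7 to 181.

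Replicate 3 stood above the others for Igfbp1 (124 CPM against 9.18 to 26.5), Ip6k2 (37.5 against 8.47 to 11.3), Per1 (11.4 against 2.62 to 3.78) and Angptl4 (58.9 against 15.1 to 21.6). The small heat shock protein Hspb1 was at 13.5 CPM there against 9.14 to 9.86, and Csf3r, a neutrophil receptor, at 1.99 against 1.68 to 1.70. The muscle gene Ckm was at 0.0462 CPM there and 0 elsewhere, which rests on 2 counts and is below the level that 3 counts set. Mup18 was the low one, at 489 CPM against 758 to 812. The summed liver transcription factors were at 820 RPKM there against 682 to 697.

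Replicate 4 was low for Apoa2 (2720 CPM against 3214 to 3260) and for Rtn3 (93.7 against 94.8 to 94.9), and high for Mt1 (13.9 against 5.36 to 6.38). In replicate 1 the summed lipid genes were at 8349 RPKM against 6854 to 7106. Of these genes, Fabp1 (3415 RPKM against 2333 to 2691) and Scd1 (1697 RPKM against 1084 to 1252) were highest there. In the same library Fcgr2b was low, at 28.9 CPM against 41.6 to 44.1.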

How the results depend on the processing

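No paired analysis was possible because only 1 group is described. On counts in place of RPKM, which favours long genes, 90.5 genes held 50% of the total, the 10 highest 25.3% and the secreted classes 44.1%. On counts the class shares were 15.7% for major urinary proteins, 14.1% for plasma carriers, 6.85% for serpins, 3.41% for apolipoproteins, 2.07% for coagulation, 1.94% for complement, 2.74% for amino acid enzymes, 1.87% for conjugating enzymes, 0.64% for carboxylesterases, 0.833% for alcohol and aldehyde dehydrogenases, 0.789% for the urea cycle, 1.12% for sugar metabolism, 1.63% for fatty acid oxidation, 1.94% for lipid handling, 0.516% for cholesterol synthesis, 0.43% for bile acids, 0.87% for oxidative phosphorylation, 0.728% for ribosomal proteins, 0.966% for translation factors, 1.38% for redox proteins, 0.718% for endoplasmic reticulum folding, 0.585% for cytosolic chaperones, 0.546% for MHC class I and 0.375% for haemoglobins (0.42% of RPKM with 1 gene of each near-identical pair, a setting chosen after seeing the data, as was adding Gm21320). The P450 share moved by less than its SD. All class shares moved by less than 1 SD without noncoding genes and without genes under 1 RPKM. They also did so without any 1 library, but that result was fixed in advance. The mean and the SD come from the same few libraries, so leaving 1 out cannot move the mean by 1 SD. That setting therefore could not test the shares. The 234 variable genes became 985 at a mean of at least 1 CPM and 82 at 20 CPM. They numbered 125 to 171 when 1 library was left out (125 without replicate 2, 142 without replicate 3), where 3 libraries also give a smaller range by construction. The coefficient of variation was 0.158 to 0.177 without 1 library, 0.189 without a filter, 0.171 on library totals, 0.144 with counts halved and 0.142 by DESeq2 1.42.0. Leaving out libraries in the gene list counts was added after seeing the data. With 41969827 or more counts per library, depth limits detection only near 0.0693 CPM, or somewhat above it if both ends of a read pair were counted. Counting error adds to the spread well above that level: for S100a8, at a mean of 0.896 CPM, it alone gives an SD of log2 CPM of 0.319.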
